A study of Mus musculus with 20 samples.

Results

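The genes described here form the liver's hepcidin circuit and its iron transport and storage partners: Hamp, Hjv, Hfe, Tfr2, Bmp6, Smad7, Tfrc, Trf, Slc40a1 and Fth1. They were chosen by symbol, and a probe set (the group of short probes that reads a transcript on the array) counted only where the platform's gene table gave it exactly 1 symbol. Of the 10 genes, 9 were measured, through 21 of the 45101 probe sets, among 18193 genes in all. Trf, the plasma carrier transferrin, had no such probe set, because its 1 probe set is shared with another symbol, and it has no value here.

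Hepcidin, the peptide encoded by Hamp, is released by hepatocytes and makes cells that export iron degrade the exporter ferroportin, so that high hepcidin keeps iron out of the plasma. Its transcription in hepatocytes is driven by bone morphogenetic proteins, chiefly BMP6 and BMP2 from the sinusoidal endothelium, through receptors, the co-receptor hemojuvelin and SMAD proteins, and by inflammatory cytokines through STAT3. HFE and transferrin receptor 2 feed the iron load of plasma transferrin into the same control.

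Livers were taken from 2 groups of 10 mice, 1 Affymetrix 3' array per mouse. All were male C57BL/6J, 8 weeks old at sampling, fed a diet with 45 kcal% fat for 4 weeks and fasted for 16 h before the liver was removed. In the MSXH group that diet held 0.02% of the maple syrup extract the labels call MSXH, and the HFD group had the same high-fat diet without it. A low-fat diet group and a 0.05% MSXH group, which the study's text also names, were not analysed here. The comparison asks what the extract does to the liver of a mouse on a high-fat diet.

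The deposited values are levels on a log scale, taken as log2, from 5.173 to 15.005, and mice differ by very little on this scale: the probe set SDs had a median of 1.07e-05, and 97.6% of probe sets were under 0.001. Differences are therefore given in units of the pooled SD within diets, as a standardized difference (MSXH minus HFD), and never as a fold of RNA. Hepatocyte genes were far above the array medians (6.5216 to 6.5226) in every mouse: the lowest level of Alb was 14.712, of Ttr 14.48, of Apoa1 14.607 and of Tat 11.41. The mean level of 8 skeletal muscle markers was 8.8519 in MSXH mouse 4 and 8.0242 in MSXH mouse 6, against 6.1954 to 6.3236 in the other 18 mice, and values that turn on these mice are given with and without them. The mean of 3 measured adipocyte markers was also high in both, at 7.0814 and 7.0823 against at most 7.0726 elsewhere. The number of mice limits the precision of every value.

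The hepcidin gene has a related copy in mice, Hamp2, and the letters just upstream of the 2 genes are shown because the BMP and STAT3 inputs act there. Both windows are the 150 bases before the annotated start, 5′ to 3′ on the minus strand, from RefSeq on GRCm38.p6. That of Hamp is chr7:30944030-30944179 and that of Hamp2 is chr7:30924182-30924331. Capitals mark GGCGCC, the core of the BMP-response element, and TTCNNNGAA, the STAT-type palindrome.
Hamp: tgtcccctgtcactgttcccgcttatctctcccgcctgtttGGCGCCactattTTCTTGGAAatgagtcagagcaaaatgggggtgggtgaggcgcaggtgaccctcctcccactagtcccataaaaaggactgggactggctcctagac
Hamp2: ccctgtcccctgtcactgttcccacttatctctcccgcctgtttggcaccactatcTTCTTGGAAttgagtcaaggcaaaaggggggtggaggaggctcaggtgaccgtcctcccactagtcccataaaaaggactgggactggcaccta
In an alignment of these windows 135 of 153 columns were identical (88.2%). Hamp held GGCGCC, which begins 109 bases before the start, and TTCTTGGAA, which begins 97 bases before it. Hamp2 held the same TTCTTGGAA, 94 bases before its start, and no GGCGCC: the aligned letters carry the substitution G4A, counted from the 5′ end of the 6 letters with the base of Hamp first. Both motifs read the same on either strand and do not overlap here. Within the 250 bases before the start, GGCGCC was found in 9.59% and TTCNNNGAA in 7.02% of 32851 RefSeq mouse promoters, and both together in 0.368%. Among the windows held for other genes of the set, Tfr2, Hfe, Bmp6 and Fth1 had neither motif and 1 of the 2 windows of Tfrc had GGCGCC. A match is a string of letters in a window and not a measured site.

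Across the set, Hjv was the gene that stood highest in MSXH livers relative to its spread, Hamp itself lay at nearly the same place in both diets, and the remaining 7 genes differed by less than 1 pooled SD. The standardized difference was above 0 for 6 of the 9 genes and below 0 for 3, with a median of 0.483, beside a median of 0.067 and 54.7% above 0 over all 18193 genes. When each array was centred on its own median this split turned to 2 above and 7 below, as it did for all genes (2.75% above), and with quantile normalization to 1 above and 7 below (7.16% of all genes above). Without MSXH mice 4 and 6 the scaled splits did not turn: 6 above and 3 below with centred arrays (42.0% of all genes above), and 5 above and 2 below with quantile normalization (56.2% of all genes above). In limma's test with the Benjamini-Hochberg adjustment 0 of the 9 genes passed an adjusted p of 0.05, and none of the 18193 genes did (0.0%), the smallest adjusted p being 0.0728. At an unadjusted p under 0.05 there was 1 gene of 9, Hjv, against 10.9% of all genes in either direction, 6.58% higher and 4.31% lower in MSXH. That share is near the background and is not a result about the set. In whole liver, a lower level from fewer cells of a type and one from less RNA per cell cannot be told apart.

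**Figure D1:**
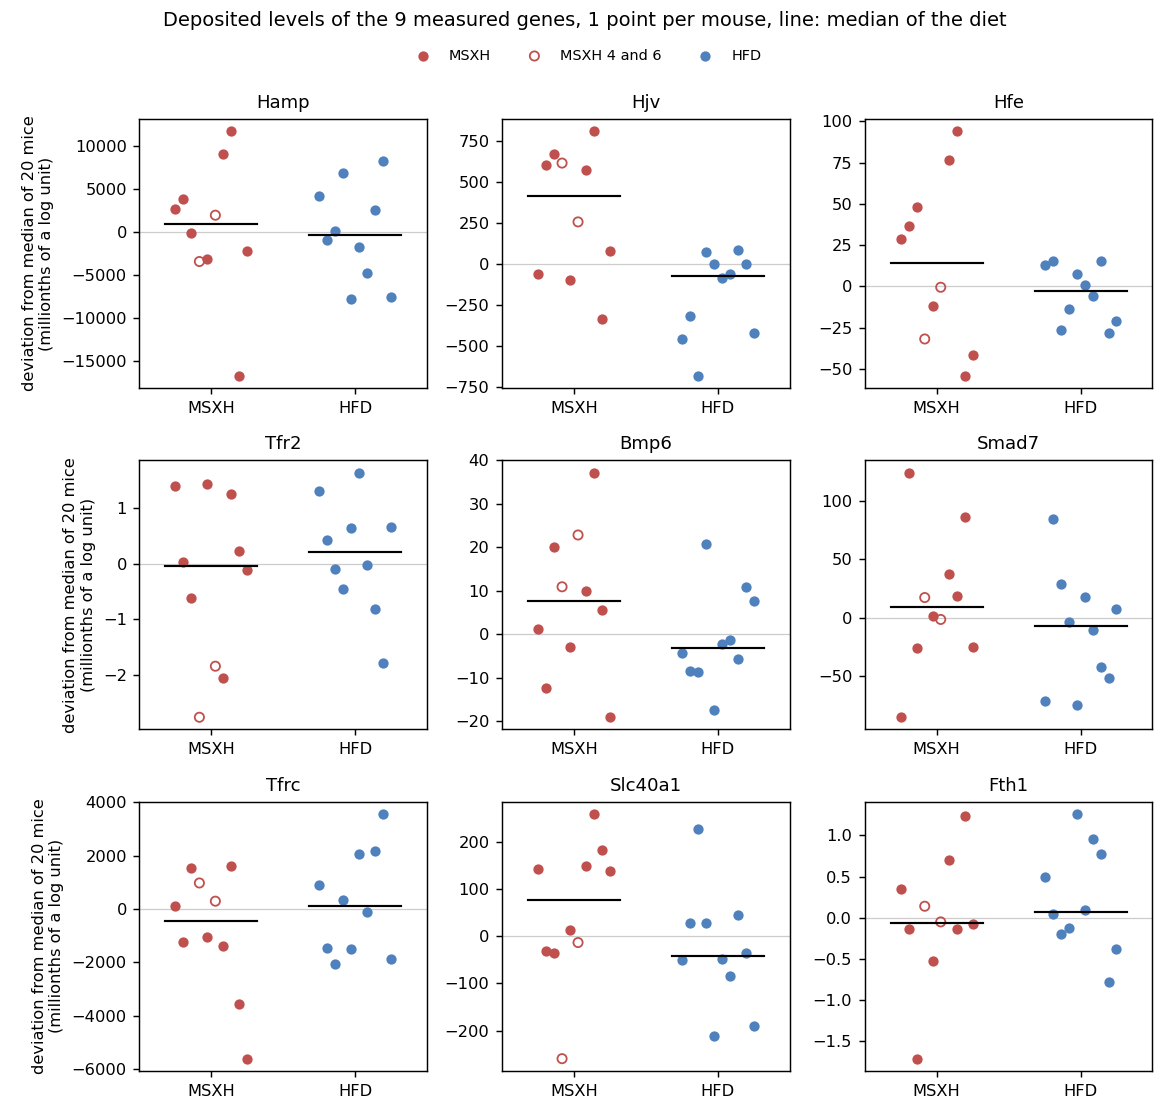
Level of each of the 9 measured genes in each of 20 mice, as the deviation from the gene's median over all mice in millionths of a log unit (vertical axis, its range differs by gene), with MSXH on the left and HFD on the right and a line at the median of each diet. Open circles are MSXH mice 4 and 6; Hjv shows 6 MSXH mice above the highest HFD mouse, and MSXH mouse 9 is the lowest for Hamp.

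Hamp (gene ID 84506, chr7:30942368-30944029) had a lowest level of 11.05994, a median of 11.077518 and a highest of 11.088323 in MSXH livers, against 11.06887, 11.076237 and 11.084895 in HFD livers. The 2 diets overlapped almost fully, and the MSXH mice spanned the wider range at both ends: mouse 9 was the lowest of all 20 and mice 8 and 7 the highest. The SD was 0.0078 in MSXH and 0.0056 in HFD livers (n = 10 each). Hamp's standardized difference was 0.063, with a 95% interval of -0.815 to 0.939, and the MSXH mouse was higher in 54 of the 100 possible MSXH and HFD pairings (adjusted p = 0.976, limma with Benjamini-Hochberg). That interval still holds differences of nearly 1 SD in either direction. A second Hamp probe set gave 0.064 and followed the first over the mice (Pearson r = 0.998, Spearman rho = 0.994 over 20 mice), so the differences between mice were read alike by both. Single mice decided the sign: the value was 0.424 without MSXH mouse 9 and -0.132 without MSXH mouse 8. Hamp varied more than most genes, with an SD above that of 99.0% of them.

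Hamp2 (gene ID 66438, chr7:30922372-30924181), which was added after its values were seen, had a lowest level of 9.9874, a median of 9.9937 and a highest of 9.9968 in MSXH livers, against 9.9897, 9.9933 and 9.9951 in HFD livers. The diets overlapped here too. Its standardized difference was 0.412 (95% interval -0.48 to 1.293), with the MSXH mouse higher in 64 of 100 pairs. MSXH mouse 9, the lowest for Hamp, was at 9.9931 for Hamp2, near the median of its diet. The correlation of Hamp2 with Hamp over the mice was r = 0.342 and rho = 0.469 (deviations from the diet mean, n = 20), while the other Hamp2 probe set gave r = -0.365. How much each probe set reads of the other copy's RNA was not tested.

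Among the hepatocyte proteins upstream of hepcidin, Hjv encodes hemojuvelin, the BMP co-receptor without which hepcidin stays low and iron accumulates. Hjv (gene ID 69585, chr3:96525163-96529216) had a lowest level of 9.325716, a median of 9.326469 and a highest of 9.326865 in MSXH livers, against 9.325368, 9.325979 and 9.326137 in HFD livers. Of the MSXH mice 6 lay above the highest HFD mouse, and 3 HFD mice lay below the lowest MSXH mouse. The standardized difference was 1.481 (95% interval 0.47 to 2.46) and the MSXH mouse was higher in 82 of 100 pairs. Its unadjusted p in limma was 0.00323, which ranked it 225 of 18193, and the Benjamini-Hochberg adjusted p was 0.261, so the difference did not pass the test.

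The second Hjv probe set lay the same way, at 1.216 (95% interval 0.241 to 2.164), with 77 of 100 pairs higher in MSXH, and followed the first closely (r = 0.952, rho = 0.902). Of the mice with muscle transcripts MSXH mouse 4 was at 9.326669 and MSXH mouse 6 at 9.326309, both inside the range of the other MSXH mice, and without them the value was 1.344 (0.289 to 2.365; adjusted p = 0.36, limma). With all 20 arrays it was 0.854 after centring each array on its median and 0.101 after quantile normalization. Without MSXH mice 4 and 6 it was 1.278 after centring (unadjusted p = 0.0124, limma) and 0.604 after quantile normalization.

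Hfe (gene ID 15216, chr13:23702034-23710854), the hemochromatosis protein that binds the transferrin receptors, had a lowest level of 9.4302, a median of 9.430268 and a highest of 9.430348 in MSXH livers, against 9.430226, 9.430251 and 9.430269 in HFD livers. The MSXH mice were more spread out, with 5 above the highest HFD mouse, and the SD was 5.06e-05 in MSXH against 1.71e-05 in HFD livers. The difference in spread was not tested. Relative to that spread the difference was 0.497 (95% interval -0.401 to 1.381) at this probe set and 0.603 at the other, and below 0 after either scaling of all 20 arrays, though 0.408 centred and 0.162 with quantile normalization without MSXH mice 4 and 6. At the other probe set MSXH mice 4 and 6 were among the lowest, and without them it was 1.137 (0.114 to 2.131).

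Tfr2 (gene ID 50765, chr5:137569822-137588081), the hepatocyte receptor that senses iron-loaded transferrin, differed between mice by a few millionths of a log unit. It ran from 12.069852 to 12.069857 in MSXH livers, against 12.069853 to 12.069857 in HFD livers, with the same median of 12.069855. Only 0.66% of genes had a smaller SD. Its standardized difference was -0.355 (95% interval -1.234 to 0.534), 0.039 without MSXH mice 4 and 6, and -0.002 at the second probe set.

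Bmp6 (gene ID 12161, chr13:38345716-38500314), the ligand that rises with liver iron, had a lowest level of 7.155378, a median of 7.155405 and a highest of 7.155435 in MSXH livers, against 7.15538, 7.155394 and 7.155418 in HFD livers. The ranges overlapped, with 8 of 10 MSXH mice above the HFD median. Bmp6 differed by 0.575 pooled SD (95% interval -0.329 to 1.464), and 65 of 100 pairs were higher in MSXH. Beside it, the mean level of 7 markers of sinusoidal endothelium, the main source of Bmp6, was 8.5792 to 8.5813 in MSXH and 8.5797 to 8.5808 in HFD livers, so the cell type's markers overlapped between diets. Their part in the Bmp6 value was not tested.

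Smad7 (gene ID 17131), an inhibitory SMAD that BMP signalling induces and that dampens it, had a lowest level of 7.080073, a median of 7.080168 and a highest of 7.080283 in MSXH livers, against 7.080084, 7.080151 and 7.080242 in HFD livers. MSXH mice were both the lowest and the highest of all. Smad7 differed by 0.483 pooled SD (95% interval -0.414 to 1.367), and 0.282 at a second probe set that followed the first (r = 0.913, rho = 0.871). For Bmp6 and Smad7 the sign turned after either scaling of all 20 arrays. Without MSXH mice 4 and 6 it did not: Bmp6 was at 0.099 centred and 0.187 with quantile normalization, and Smad7 at 0.402 and 0.312.

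Tfrc (gene ID 22042, chr16:32608896-32632794) encodes transferrin receptor 1, the uptake route whose mRNA is stabilised when a cell is short of iron. Its lowest level was 8.429262, its median 8.434407 and its highest 8.436494 in MSXH livers, against 8.432806, 8.434973 and 8.438424 in HFD livers. The lowest mice were MSXH mice 10 and 9 and the highest were HFD mice 9 and 8, while the bulk of both diets overlapped. The standardized difference was -0.482 (95% interval -1.366 to 0.415), with 43 of 100 pairs higher in MSXH, and Tfrc, like Hamp, varied more than most genes (above 98.0% of them).

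All 6 probe sets of Tfrc lay below 0: the other 2 gene probe sets at -0.544 and -0.712, and the 3 array control probe sets for its 3′ end, middle and 5′ end at -0.043, -0.608 and -0.521. These values are not independent readings of the same mice's RNA. The other gene probe sets were under every array median and followed the first poorly over the mice (r = 0.168 and -0.118, rho = 0.132 and -0.059). The middle and 5′ controls, at most 5.776102 and 5.583175, were also under every array median, while the 3′ control was above them. No interval of the 6 excluded 0.

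Slc40a1 (gene ID 53945, chr1:45908070-45926532) encodes ferroportin, the iron exporter that hepcidin removes. It had a lowest level of 11.131042, a median of 11.131377 and a highest of 11.131561 in MSXH livers, against 11.13109, 11.13126 and 11.131529 in HFD livers. Of the MSXH mice 9 lay above the HFD median, and the exception, MSXH mouse 4, was the lowest of all 20 and is 1 of the 2 mice with muscle transcripts. The mean level of the Kupffer cell and macrophage markers was also lowest in those 2 mice, at 8.5082 in each against 8.5084 to 8.5116 in the other 18, and its part in the Slc40a1 value was not tested. The standardized difference was 0.607 (95% interval -0.3 to 1.497; 70 of 100 pairs), and 1.118 without MSXH mice 4 and 6 (0.097 to 2.109; unadjusted p = 0.0278 and adjusted p = 0.421, limma).

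Without those mice 2 of the 9 genes, Hjv and Slc40a1, were at an unadjusted p under 0.05, beside 10.3% of all genes. The second Slc40a1 probe set followed the first over the mice (r = 0.89, rho = 0.857) but gave a smaller difference, 0.104 with all mice and 0.521 without MSXH mice 4 and 6. With quantile normalization the sign turned, to -0.604 with all mice and -0.406 without mice 4 and 6.

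Fth1 (gene ID 14319, chr19:9980600-9985111), the heavy chain of the storage protein ferritin, ran from 13.687384 to 13.687387 in MSXH livers, against 13.687385 to 13.687387 in HFD livers. Only 0.181% of genes had a smaller SD. The 2 probe sets gave opposite signs, -0.327 (95% interval -1.206 to 0.56) and 0.375 (-0.515 to 1.255), and did not follow each other over the mice (r = -0.035, rho = -0.093). Without MSXH mice 4 and 6 they were at -0.332 (-1.264 to 0.609) and 1.005 (-0.001 to 1.983). Ferritin synthesis is known to be set largely by translation of its mRNA, which an array does not read.

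**Figure D2:**
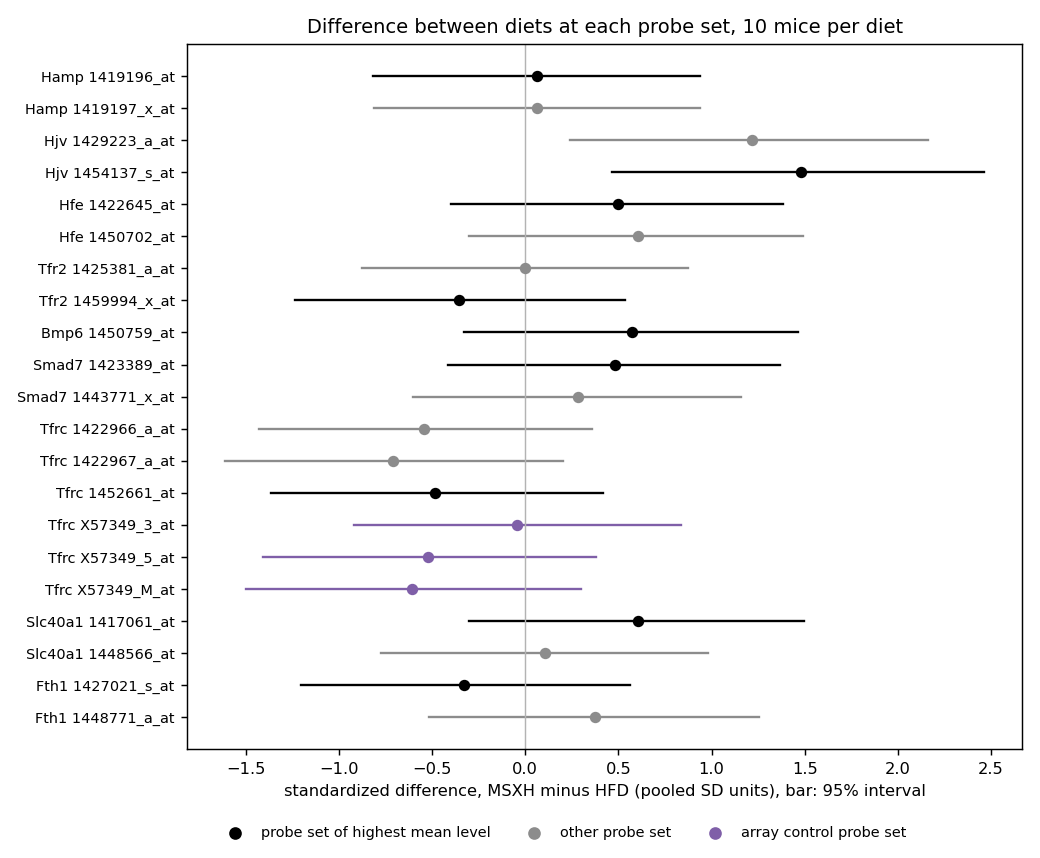
Standardized difference (horizontal axis, MSXH minus HFD in pooled SD units) of each of the 21 probe sets of the 9 genes, with its 95% interval, 10 mice per diet; black is the probe set of highest mean level of a gene, grey another probe set and purple an array control. Both Hjv probe sets, at 1.481 and 1.216, have intervals above 0, and every other interval spans 0.

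Whether the genes varied together between mice was asked with the deviation of each mouse from the mean of its diet, over all 36 pairs of the 9 genes, by two-sided permutation within diets. After the Benjamini-Hochberg adjustment 0 of the 36 pairs passed 0.05. The pair with the smallest p was Hamp and Hfe, with r = 0.643 (permutation p = 0.00459, adjusted 0.117) and rho = 0.564 (permutation p = 0.0128, adjusted 0.159) over 20 mice. The relation lay within MSXH livers, at r = 0.872 (permutation p = 0.00019, adjusted 0.00684 over the 36 pairs in that diet), and was -0.149 within HFD livers (permutation p = 0.672). The difference between the diets was not tested. Without MSXH mice 8 and 9, the highest and the lowest for Hamp, r over all mice was 0.367. That value also takes in the HFD livers, where r was -0.149, so it does not show how far the relation within MSXH livers rests on those 2 mice. The value within MSXH livers was not computed without them. The correlation over all mice also fell with scaling, to r = 0.215 with centred arrays and 0.097 with quantile normalization. The scaled values were not computed within each diet.

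Hamp, Hjv and Tfrc had positive correlations with one another, none past the adjusted test. Tfrc correlated with Hjv at r = 0.583 and rho = 0.561 (permutation p = 0.00971 and 0.0132, adjusted 0.117 and 0.159), within MSXH livers at r = 0.596 and within HFD livers at 0.57, and at 0.461 without the 2 mice farthest out. With Hamp it correlated at r = 0.545 and rho = 0.51 (permutation p = 0.02 and 0.0266, adjusted 0.139 and 0.195), at 0.475 within MSXH and 0.663 within HFD livers, and at 0.405 without MSXH mice 8 and 9. Hamp and Hjv gave r = 0.54 and rho = 0.395 (permutation p = 0.0211 and 0.0941, adjusted 0.139 and 0.376), with 0.711 within MSXH and 0.184 within HFD livers. Without MSXH mice 8 and 9 the r of Hamp and Hjv was lower, at 0.231, and the change was not tested.

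Bmp6 and Tfrc gave r = 0.604 and rho = 0.579 (permutation p = 0.00757 and 0.0107, adjusted 0.117 and 0.159), within MSXH livers 0.749 and within HFD livers 0.356, and 0.398 without the 2 mice farthest out. After centring the arrays it was -0.035. Hjv and Hfe gave r = 0.583 and rho = 0.568 (permutation p = 0.0232 and 0.0271, adjusted 0.139 and 0.195), within MSXH 0.692 and within HFD 0.212. Smad7 followed none of the other genes, with r between -0.295 and 0.137.

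**Figure D3:**
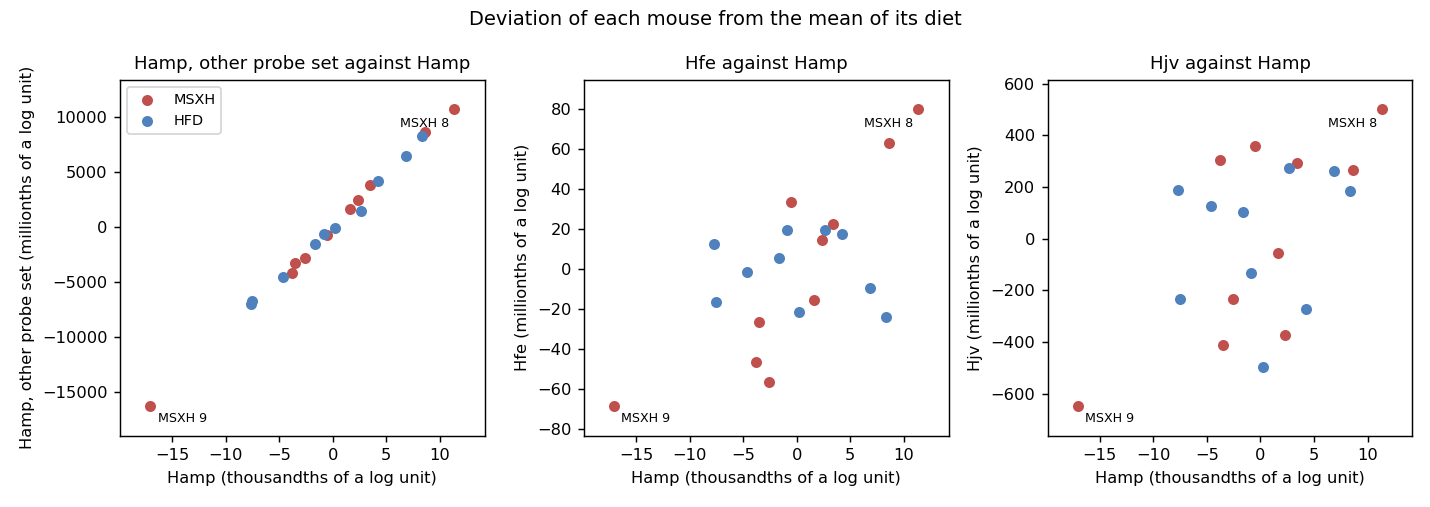
Each point is 1 of 20 mice, as its deviation from the mean of its diet: the second Hamp probe set, Hfe and Hjv (vertical axes, millionths of a log unit) against Hamp (horizontal axis, thousandths of a log unit). The Hamp probe sets follow each other (r = 0.998), and MSXH mice 8 and 9 lie at the 2 ends of the Hfe and Hjv plots.

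**Figure D4:**
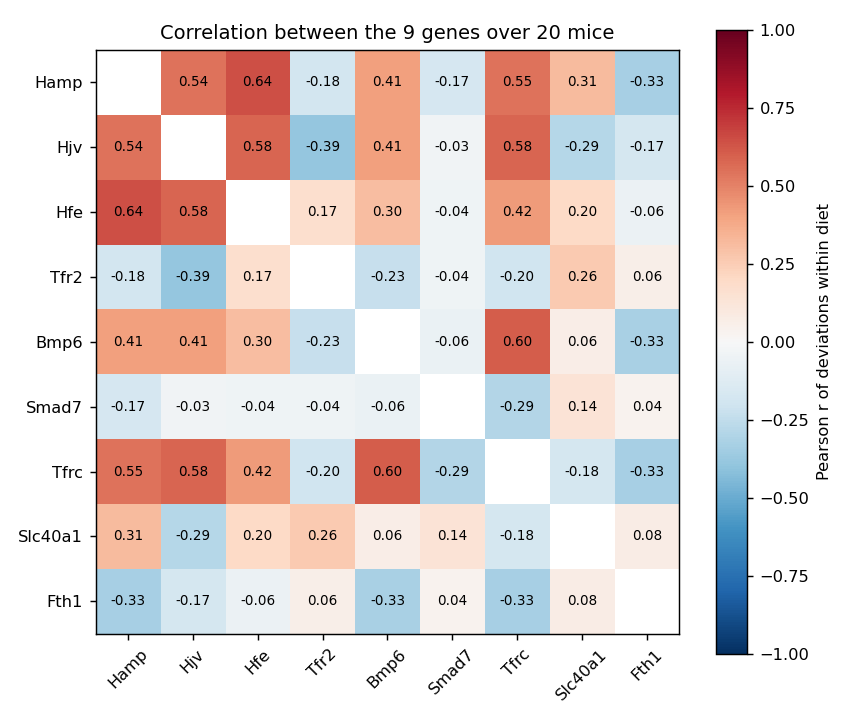
Pearson r of the within-diet deviations for each pair of the 9 genes over 20 mice, in red where positive and in blue where negative. Hamp, Hjv, Hfe, Bmp6 and Tfrc form the block of positive values, up to 0.643 for Hamp and Hfe, and none of the 36 pairs passed the adjusted test.

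Transcripts that BMP signalling induces in hepatocytes were set beside Hamp, with 5 genes chosen after values had been seen. None passed the adjusted test: Id1 gave r = -0.323 (permutation p = 0.19) and rho = -0.448 (permutation p = 0.0555, adjusted 0.278 over the 5), with -0.136 within MSXH and -0.662 within HFD livers. The others gave r = -0.207 for Id3, -0.008 for Smad6, -0.165 for Smad7 and -0.256 for Atoh8. Over all 20 mice no r was positive, while within MSXH livers Smad6 gave 0.292.

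Over all genes, those whose rank over the 20 mice was most like that of Hamp were Zfp280c (rho = 0.86), Rfwd3 (0.827), Celsr1 (0.826), Ankrd28 (0.824) and B230308N11Rik (0.805). Those most opposite were Csmd3 (-0.8), Idua (-0.783), Paqr4 (-0.776), Maff (-0.77) and Olig3 (-0.77), of which Csmd3, Paqr4 and Olig3 were under the array medians. All are the extremes of 18193 genes over the same 20 arrays and none belongs to the iron lists.

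The wider iron system was read through 65 further measured genes in 7 lists. Of these, 42 were higher and 23 lower in MSXH livers, with a median standardized difference of 0.202 beside 0.067 over all genes, and 0 passed the adjusted test. At an unadjusted p under 0.05 there were 7 (10.8%, 4 higher and 3 lower), beside 10.9% of all genes. With all 20 arrays centred the split was 3 higher and 62 lower, and after quantile normalization 9 and 53 of the 62 genes with a spread left, with most members lower in each of the 7 lists and over all genes. Without MSXH mice 4 and 6 the split was 42 and 23 in the deposited values, 38 and 27 after centring and 38 and 22 of 60 after quantile normalization.

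Of the BMP-SMAD genes 16 of 17 were measured, 13 higher and 3 lower, with a median of 0.203. At the probe set of highest mean level 1 gene was past the unadjusted threshold in each direction. Smad6, an inhibitory SMAD like Smad7, had a lowest level of 7.060591, a median of 7.060806 and a highest of 7.060935 in MSXH livers, against 7.060511, 7.060664 and 7.060809 in HFD livers. The MSXH median lay close to the highest HFD mouse, with 84 of 100 pairs higher in MSXH and a standardized difference of 1.322 (limma adjusted p = 0.297), which turned to -0.125 after centring the arrays and -0.095 after quantile normalization of all 20 arrays. Without MSXH mice 4 and 6 Smad6 was at 1.485, and at 1.507 centred and 1.059 with quantile normalization. Bmp2, the second endothelial ligand of hepcidin, was the lower one, at -0.976 (21 of 100 pairs higher in MSXH; unadjusted p = 0.0389 and adjusted p = 0.431, limma). With all 20 arrays Bmp2 was at -0.817 after centring and -0.634 after quantile normalization. Without MSXH mice 4 and 6 it was at -0.872 (unadjusted p = 0.0785, limma), -0.753 centred and -0.101 with quantile normalization. Of the 7 endothelial markers 2 were higher in MSXH, and 2 of the others were lower at an unadjusted p under 0.05 (limma). The mean level of the 7 markers overlapped between diets, with a standardized difference of -0.295. The part of these markers in the Bmp2 value was not tested.

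Of the 6 inflammatory genes 4 were higher and 2 lower, with a median of 0.32. Cebpa, the hepatocyte transcription factor that sustains Hamp expression, had a lowest level of 9.94005, a median of 9.940157 and a highest of 9.940458 in MSXH livers, against 9.939685, 9.939916 and 9.940326 in HFD livers. It was higher in 88 of 100 pairs, with a standardized difference of 1.576 (limma adjusted p = 0.229), 1.572 without MSXH mice 4 and 6, but -1.48 after quantile normalization (-1.283 without those mice). Socs3, the inhibitor that STAT3 induces, was at -0.606 (limma unadjusted p = 0.184).

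Of 12 uptake genes 7 were higher and 5 lower, with a median of 0.267. Slc39a8, a zinc and iron transporter, was at 1.52 with 89 of 100 pairs higher in MSXH (limma adjusted p = 0.25), but at 0.332 at its other probe set. With all 20 arrays it was at -0.46 after centring the arrays and at -0.365 after quantile normalization, while without MSXH mice 4 and 6 it was at 1.64, 1.121 centred and 0.593 with quantile normalization. Cybrd1, an iron-reducing enzyme best known from the gut, was at -0.955 (limma adjusted p = 0.439), and its other probe set had the opposite sign, 1.048.

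Storage and release genes (9 of 10 measured, 5 higher and 4 lower, median 0.012) and iron-sensing genes (5 of 5 measured, 2 higher and 3 lower, median -0.065) had no gene past the unadjusted threshold at the probe set of highest mean level. At other probe sets, chosen after their values were seen, the heme exporter Flvcr1 was at 1.323 (unadjusted p = 0.00723, limma) and the oxygen-sensing factor Hif1a at -1.187 (unadjusted p = 0.0146, limma). At the ones used they were at 0.424 and -0.208, and the remaining Hif1a probe sets were at 0.449 and -0.084. The members of smallest p were the mitochondrial iron importers Slc25a28 (0.539) and Slc25a37 (0.436), and among the sensors Aco1, which encodes iron regulatory protein 1 (-0.749, with other probe sets at 0.717 and 0.074), and Fbxl5, which removes iron regulatory protein 2 (0.289). Of the iron-sulfur cluster genes 10 were measured, 8 higher and 2 lower, with a median of 0.242. Hscb, a cochaperone of cluster transfer, was at 0.867 and Isca2, a late assembly factor, at 0.674, and neither passed the unadjusted threshold. Bola3 was at 0.361 at the probe set used and at 0.333 at another. At its remaining probe set, chosen after the values were seen, it was at 1.388 (unadjusted p = 0.0052, limma).

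Heme synthesis, the other large use of iron in hepatocytes, held 7 measured genes, with 3 higher, 4 lower and a median of -0.002. Alas1, the rate-limiting enzyme, had a lowest level of 10.15359, a median of 10.201143 and a highest of 10.235489 in MSXH livers, against 10.203744, 10.217425 and 10.237904 in HFD livers. The MSXH median lay below the lowest HFD mouse, and 20 of 100 pairs were higher in MSXH. Its standardized difference was -1.092 (unadjusted p = 0.0224 and adjusted p = 0.372, limma), with -1.19 at its other probe set, -1.1 after centring the arrays, -1.094 after quantile normalization and -0.993 without MSXH mice 4 and 6. Uros, a later enzyme of the pathway, was at 1.649 with 91 of 100 pairs higher in MSXH (limma adjusted p = 0.229), but its other probe set was at -0.425. With all 20 arrays Uros was at -0.583 after centring and 0.237 after quantile normalization, and without MSXH mice 4 and 6 at 1.805, 0.459 centred and 1.125 with quantile normalization.

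**Figure D5:**
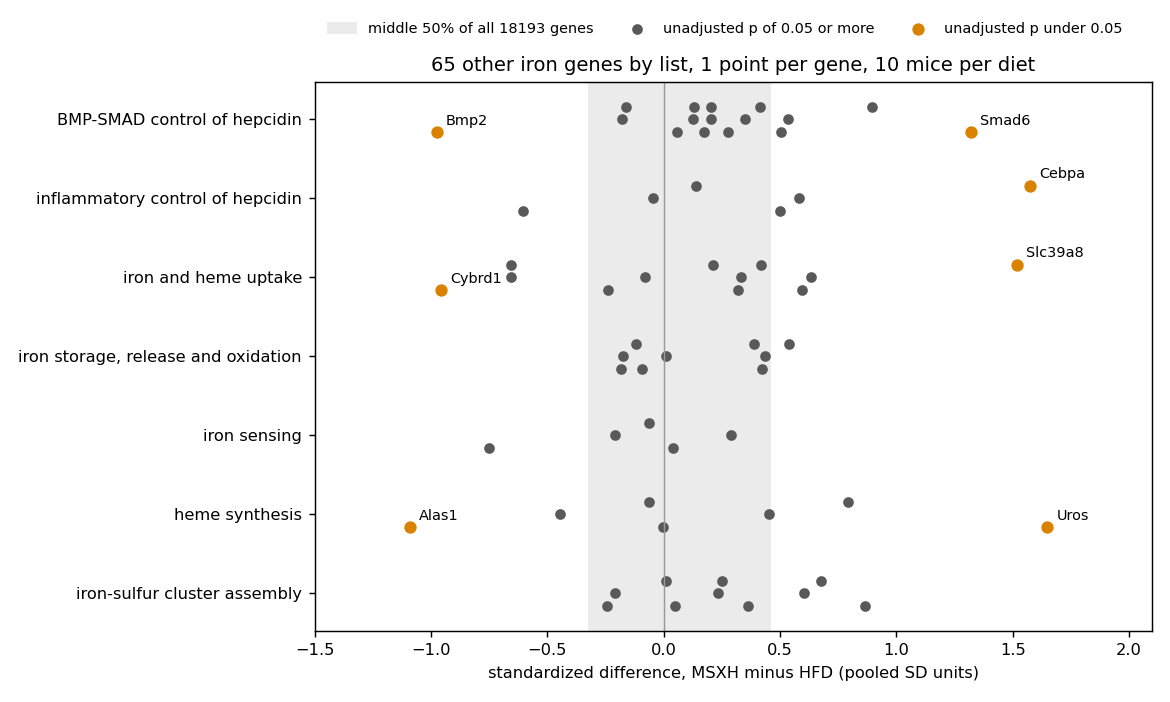
Standardized difference (horizontal axis, MSXH minus HFD in pooled SD units) of each of the 65 other iron genes, in rows by list, 10 mice per diet; the grey band is the middle 50% of all 18193 genes, from -0.322 to 0.456, and orange marks the 7 genes at an unadjusted p under 0.05. Cebpa, Slc39a8, Smad6 and Uros lie above 1.3 and Alas1, Bmp2 and Cybrd1 below -0.9 in the deposited values; after centring the arrays Slc39a8, Smad6 and Uros lie below 0, and after quantile normalization Cebpa, Slc39a8 and Smad6 do; without MSXH mice 4 and 6, Cebpa with quantile normalization is the only one of these 4 below 0.

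The ranges of markers of other liver cells overlapped between the diets. The mean level of 8 Kupffer cell and macrophage markers, cells that recycle iron, was 8.5082 to 8.5116 in MSXH and 8.5084 to 8.5109 in HFD livers, with 7 of the 8 markers higher in MSXH and 0 at an unadjusted p under 0.05. The mean level of 4 measured erythroid markers of 6 listed was 7.0541 to 7.0543 in both diets. For 7 stellate cell markers it was 7.9101 to 7.9188 in MSXH and 7.9102 to 7.916 in HFD livers, with the highest value in MSXH mouse 4. Of the 7 endothelial markers 2 were higher in MSXH, and the standardized difference of their mean level was -0.295. Among the others 2, Pecam1 and Oit3, were lower in MSXH at an unadjusted p under 0.05 (limma), beside 4.31% of all genes. Pecam1 and Oit3 were chosen after their values were seen.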

How the data were processed

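Total RNA from 20 livers was labelled with biotin and hybridised to Affymetrix 3' arrays, per the labels' protocols. The deposited log values of the authors were taken as log2; their base, background correction and normalization were not given in the sources used here, and no rescaling was applied before the test. Groups came from the sample titles. Of 45101 probe sets, 34958 had 1 symbol in the platform's gene table, 932 several and 9211 none; 64 are controls. A gene was represented by its probe set of highest mean level (18193 genes, no filter). limma 3.58.1 in R 4.3.3 (lmFit, eBayes with trend, two-sided, Benjamini-Hochberg over all genes; 18 residual and 0.704 prior degrees of freedom) was run on the whole table and checked on simulated data. Intervals of standardized differences are noncentral t, at 95%. Correlations used 100000 permutations within diets (Python 3.11.15, scipy 1.17.1). p-values measure the spread between mice. Mice that share a replicate number did not vary together (r from -0.265 to 0.165), and the main test did not pair them. Whether the numbers hold other information was not tested.

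The members and lists were chosen with earlier results of these data known. All members were named, with the 2 genes of smallest p of each iron list and the 5 most and 5 least like Hamp by rank correlation. Hamp2, the 5 BMP targets and the 2 endothelial markers were chosen after their values were seen. So were the other probe sets of Flvcr1, Hif1a, Bola3, Neo1 and Smad1. Other probe sets of Stat3, Steap2, Cybrd1, Slc46a1 and Alas1 were also at an unadjusted p under 0.05 (limma). The lists covered BMP-SMAD and inflammatory control of hepcidin, iron and heme uptake, storage, sensing, heme synthesis and iron-sulfur cluster assembly, and cell type markers. Listed genes without a probe set of 1 symbol here were not analysed. Alternatives were scaling, arrays left out, a replicate block, other probe set rules, variance priors, weights and a rank sum test. Sequences are from RefSeq; of the 10 genes, Hjv, Slc40a1, Smad7 and Trf had no promoter entry used here.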

Additional observations from a re-analysis of the deposited data

Results flagged for a closer look

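Hamp in MSXH mouse 9, at 11.05994, lay apart from the other MSXH mice: its gap to the next lowest MSXH mouse was 0.467 of the range of that diet, just past Dixon's critical value for 10 mice. It was the 1 such case among 18 groups of 10 mice examined (9 genes in 2 diets), and chance gives about 1 in 20. The second Hamp probe set was also lowest in this mouse (10.710738), while Hamp2 was at 9.9931, near the MSXH median of 9.9937. The same mouse was the lowest for Hfe and the lowest MSXH mouse for Hjv, and the standardized difference of Hamp without it was 0.424.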

How the results depend on the processing

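Over 11 settings other than leaving out single mice, 84 of 96 gene values kept their direction and 12 turned. No adjusted p of these genes was under 0.229, so none passed that threshold in any setting. At the unadjusted threshold Hjv and Slc40a1 changed side in some settings, such as Hjv with centred arrays (p = 0.0621, limma). The values that turned were Hamp with array weights and with quantile normalization (-0.013 each); Hfe, Bmp6, Smad7 and Slc40a1 with centred arrays (-0.551, -0.638, -0.54 and -0.233) and with quantile normalization (-0.547, -0.462, -0.448 and -0.604); and, without MSXH mice 4 and 6, Slc40a1 with quantile normalization (-0.406) and Tfr2 (0.039). Without those mice the other signs did not turn under either scaling. Centring subtracts an array's offset from every gene, by construction, and put the median difference of all genes at -0.000161, against a median probe set SD of 1.07e-05. Leaving out each mouse moved Hamp between -0.132 and 0.424 and Hjv between 1.373 and 1.875. Hjv ranged from 0.101 (quantile normalization) to 1.481. The set's count at an unadjusted p under 0.05, 1 in the deposited values, was 0 with either scaling and with quantile normalization without mice 4 and 6, 2 without those mice alone or centred, and 1 to 2 over single mice left out (2 without MSXH mouse 4, where Slc40a1 was 1.013). Of the 65 other iron genes 7 passed in the deposited values, 1 centred, 2 with quantile normalization, 4 centred without mice 4 and 6, and 5 to 9 over single mice left out. Genes past the adjusted p, 0 in the deposited values with 1982 at an unadjusted p under 0.05 in limma, were 1 with the mean of probe sets, 4 by the rank sum test and 0 to 3 over single mice left out (3 without HFD mouse 3, and 1 without MSXH mouse 2 or 3 or HFD mouse 6 or 9). Correlated pairs past the adjusted p, 0 of 36, were 1 within MSXH, 13 with quantile normalization and 19 centred. The array medians, from 6.5216 to 6.5226, ranged more widely than genes such as Hfe (SD 3.77e-05) and Bmp6 (1.42e-05). Centring gives such genes a shared offset by construction, so their centred correlations and the count of 19 are not results about the genes. Hamp with Hfe was -0.149 within HFD, and Bmp6 with Tfrc was -0.161 with quantile normalization and -0.035 centred. With the replicate number as a block, Hjv was 1.47 (adjusted p = 0.336, limma), and 1 gene of the set, 8 other iron genes and 0 genes overall passed; the block changed no call of the 9 genes. Fth1, and Tfr2 without mice 4 and 6, had no spread left after quantile normalization and no value there. The causes of these shifts were otherwise not tested.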
